A study of Mus musculus with 4 samples.

Results

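The genes described here are the integrin subunits and laminin chains of mouse colon and colon tumour. They were taken by symbol from the probe sets that name a single gene: Itga or Itgb with the letter or number of a subunit, and Lama, Lamb or Lamc with a number. For a gene with several probe sets, the one with the highest mean was used. This gave 36 genes of the 22180 named on the array, 17 integrin alpha subunits, 9 integrin beta subunits and 10 laminin chains. Itgb1bp1, Itgb1bp2 and Itgb3bp, which are named for proteins that bind integrin subunits, and the integrin-like Itgbl1 are not subunits and were left out. Itga10 was not analysed here.

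RNA of C57BL/6 mice aged 3 months was hybridised to 4 Affymetrix whole-transcript arrays, with 1 array a group. The groups were tumour of CDX2; Dmt1F/F/ApcF/+ mice (F/F tumour), tumour of CDX2; Dmt1+/+/ApcF/+ mice (wild-type tumour), and normal colon of each genotype (F/F normal and wild-type normal). Every group, normal colon included, therefore carried 1 floxed allele of Apc, the tumour suppressor that restrains Wnt signalling, together with the element labelled CDX2. The labels do not spell that element out. In mouse colon models a Cdx2 promoter is commonly used to express Cre recombinase in the intestinal epithelium. The design text names 4 F/F and 7 wild-type animals, and it is not stated whether an array holds pooled RNA. Values are log2 signals after RMA (robust multi-array average), as deposited. With 1 array a group, a difference between 2 arrays has no replicate check and no p-value. Precision is limited by the small number of arrays.

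Slc11a2, the gene of the iron importer Dmt1, was at 6.19 in F/F tumour against 6.64 in wild-type tumour, and at 6.13 in F/F normal against 6.51 in wild-type normal. It was lower on both F/F arrays, in the direction of the labels, as were 26.4% of all kept genes. At or below its differences of -0.45 in tumour and -0.38 in normal colon were 5.65% and 9.3% of kept genes. Whether its probes lie inside the floxed part was not examined. The 8 epithelial markers of the list used here (Epcam, Cdh1, Krt8, Krt18, Krt19, Krt20, Cldn7 and Vil1) were all kept on level, with summed log2 signals of 13.37 and 13.19 in the F/F and wild-type tumours and 13.59 and 13.55 in the F/F and wild-type normal colons. Genes of posterior position moved with the tissue: 3 of 6 Hox genes of the distal colon rose in tumour, with summed signals of 9.63 and 9.73 in the F/F and wild-type tumours against 7.50 and 8.60 in the F/F and wild-type normal colons. The labels give no position for the pieces, so position and tumour cannot be told apart. In whole tissue, fewer cells of a type and less RNA per cell cannot be told apart either.

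Integrins are receptors of 1 alpha and 1 beta subunit that hold cells to matrix or to other cells. Laminins are trimers of 1 alpha, 1 beta and 1 gamma chain and form the scaffold of basement membranes, the sheets on which colon epithelium, muscle cells and vessels rest. Epithelial cells grip laminin through the pairs Itga6 with Itgb4 and Itga3 with Itgb1, while leukocytes use the partners of Itgb2 and Itgb7 to leave vessels and to settle in the gut wall. Counts and tests used the genes whose highest array was at or above log2 4.67, the median level of all genes. This floor stands in for background, since the table gives no detection call, and a difference from an array below it is uncertain in size. Of the 36 genes 31 were kept. Itgad, Itgb2l, Itga2b, Itga11 and Lamc3 were not, with values between 2.97 and 4.08.

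**Figure D1:**
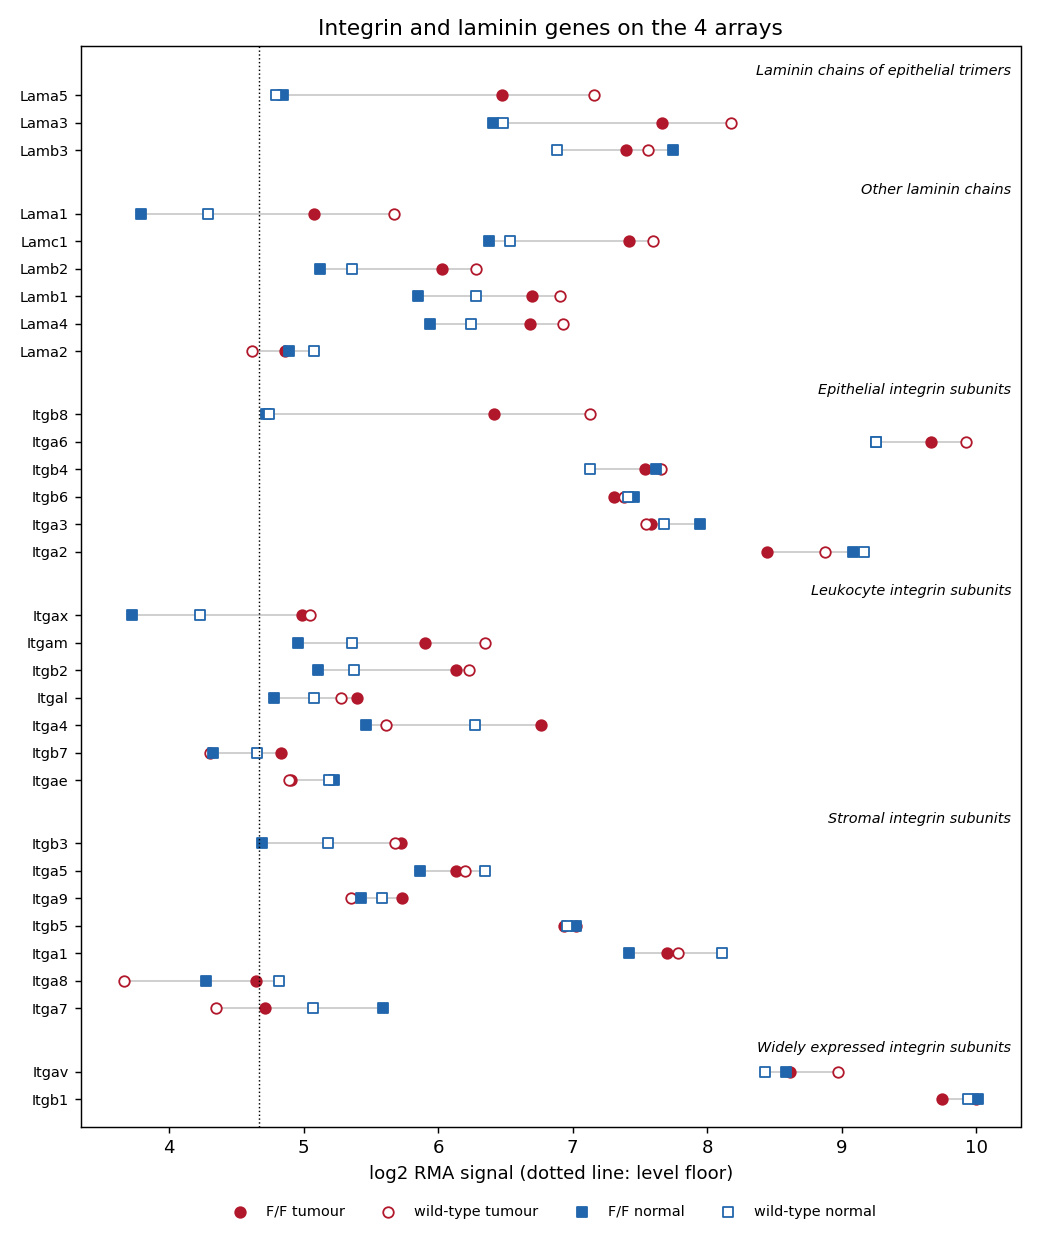
Log2 RMA signal (x axis) of the 31 kept integrin and laminin genes (rows) on each of the 4 arrays, with tumour as circles, normal colon as squares, F/F filled and wild-type open. Both tumour arrays lie above both normal arrays for 15 genes, among them 7 laminin chains, Itgb8, Itga6, Itgam, Itgax and Itgb2, while the 4 arrays of Itgb6 and of Itgb5 lie close together.

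Of the integrin and laminin genes that rose in tumour, most were laminin chains. In one limma model over the 4 arrays, with tissue and genotype as additive terms, 12 of the 31 kept genes rose in tumour and 1 fell at a Benjamini-Hochberg adjusted p below 0.05, against 11.0% and 8.23% of the 12060 kept genes. Of the 9 kept laminin chains 7 rose and none fell, with a median fitted difference of 0.92 against 0.07 over all kept genes. Of the 22 kept integrin subunits 5 rose and 1 fell, with a median of 0.07. The only residual of this model, 1 degree of freedom, is how far the tissue difference departs between genotypes, so the 2 genotypes stand in for replicates of the tissue difference, and a call does not show that its size is alike in both. Some genes reached the level needed only through their tumour arrays, so these counts are a description.

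Among the chains of epithelial trimers, Lama5, the alpha chain of the main laminin under adult epithelium and endothelium, differed most. Lama5 was at 6.47 in F/F tumour and 7.16 in wild-type tumour, against 4.84 in F/F normal and 4.80 in wild-type normal. Both normal arrays lay just above the level floor, and both tumour arrays were far from them. The fitted tumour difference was 2.00 (SE 0.22, adjusted p = 0.0149), a fold of 3.99, and 1.99% and 1.06% of kept genes were as high or higher in the F/F and the wild-type comparison. Lama3, the alpha chain of the anchoring laminin of hemidesmosomes, was at 7.66 and 8.18 in the F/F and wild-type tumours and at 6.41 and 6.48 in the F/F and wild-type normal colons. It rose by 1.47 (SE 0.16, adjusted p = 0.0146). Lamb3, its beta chain partner, did not follow. Lamb3 was at 7.40 in F/F tumour and 7.56 in wild-type tumour, against 7.75 in F/F normal and 6.88 in wild-type normal. The tissues overlapped, with F/F normal colon the highest of the 4 arrays, and the fitted difference was 0.16 (SE 0.27, adjusted p = 0.684).

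Of the 6 kept chains that stromal, vascular and muscle cells also make, 5 rose. Lama1, a chain of the embryonic type of laminin, was at 5.08 and 5.67 in the F/F and wild-type tumours and at 3.79 and 4.29 in the F/F and wild-type normal colons. Both normal arrays lay below the level floor, so the size of the fitted difference of 1.33 (SE 0.19, adjusted p = 0.022) is uncertain. Lamc1, the gamma chain shared by most laminins, was at 7.42 and 7.60 in the F/F and wild-type tumours, against 6.38 and 6.53 in the normal colons of these genotypes. Its differences were nearly the same in the F/F comparison (1.04) and the wild-type comparison (1.06), with a fitted value of 1.05 (SE 0.12, adjusted p = 0.0153). The beta chain Lamb2 was at 6.03 and 6.28 in the F/F and wild-type tumours and at 5.12 and 5.36 in the F/F and wild-type normal colons, and rose by 0.92 (SE 0.14, adjusted p = 0.0233). The beta chain Lamb1 was at 6.70 and 6.91 in the F/F and wild-type tumours against 5.85 and 6.28 in the F/F and wild-type normal colons, and rose by 0.74 (SE 0.13, adjusted p = 0.0321). Lama4, the alpha chain of endothelial and mesenchymal laminin, was at 6.68 and 6.93 in the F/F and wild-type tumours against 5.94 and 6.24 in the normal colons, and rose by 0.71 (SE 0.12, adjusted p = 0.0297). For each of these chains both tumour arrays were above both normal arrays. Over the 31 genes 15 had this order, against 40.1% of kept genes, and 6 had the opposite order, against 29.2%.

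Lama2, the alpha chain of muscle and nerve laminin, went apart from the others, at 4.86 in F/F tumour and 4.62 in wild-type tumour against 4.89 in F/F normal and 5.08 in wild-type normal. Its fitted difference was -0.25 (SE 0.21, adjusted p = 0.422). By trimer, all 3 chains rose for the trimers of Lamb1 and Lamc1 with Lama1, Lama4 or Lama5, and for that of Lama5, Lamb2 and Lamc1. In the trimer of Lama2, Lamb1 and Lamc1 2 of 3 chains rose. Transcript levels do not show which trimers were assembled.

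**Figure D2:**
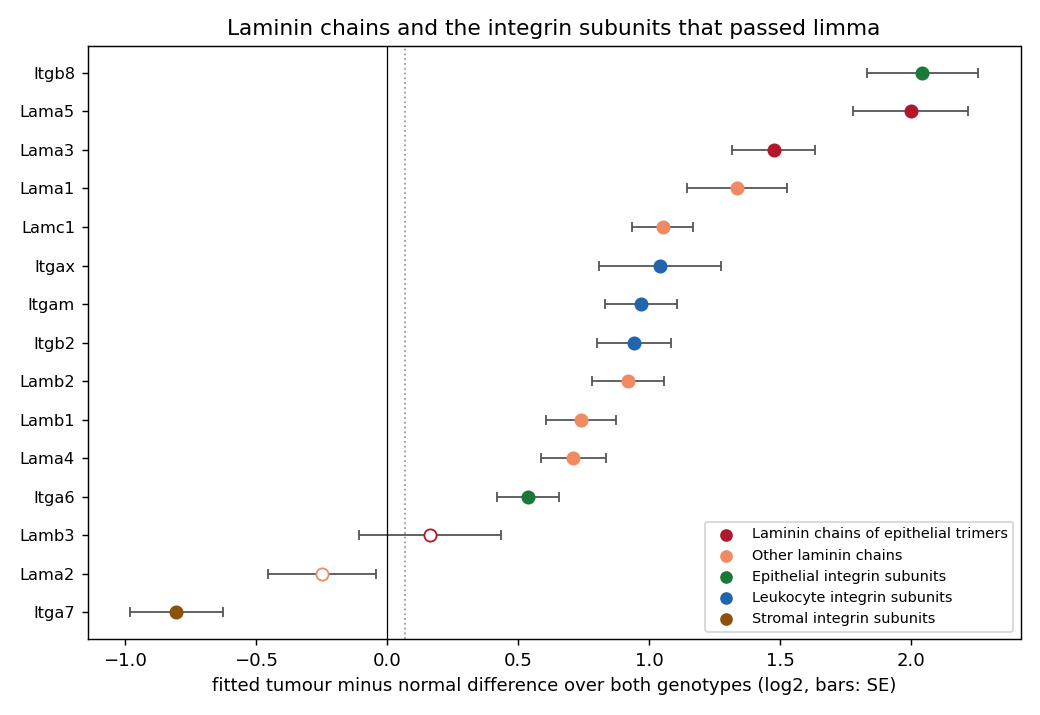
Fitted tumour minus normal difference over both genotypes (x axis, log2, bars show the SE of the limma fit) for the 9 kept laminin chains and the 6 integrin subunits that passed, filled where the adjusted p was below 0.05 and open otherwise. Itgb8 and Lama5 lie furthest right at 2.04 and 2.00, Lamb3 and Lama2 did not pass, Itga7 is the gene that fell, and the dotted line marks the median of all kept genes at 0.07.

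Among the marker lists set beside the laminins, only the fibroblast list had most of its genes pass. Of 5 fibroblast markers 4 rose. The summed log2 signal of the 5 was 10.46 and 10.71 in the F/F and wild-type tumours, against 9.74 and 10.07 in the normal colons. The exception, Lum, differed by -0.21 in the F/F and -0.82 in the wild-type comparison and did not pass. Of 5 endothelial markers 1 rose (Cdh5), with sums of 8.46 and 8.40 in the F/F and wild-type tumours against 7.56 and 7.81 in the normal colons. All 5 had both tumour arrays above both normal arrays, an order that 40.1% of kept genes had. Of the 8 epithelial markers none rose and 2, Krt20 and Vil1, fell. Of 5 squamous markers 1, Krt14, was kept, at 4.84 and 5.34 in the F/F and wild-type tumours against 3.99 and 3.10 in the F/F and wild-type normal colons, and it did not pass. The part of these cell types in the laminin differences was not tested.

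The 250 bases before the RefSeq start are shown for the laminin genes that rose and have an entry in the promoter table, since these chains rose together. They are written 5′ to 3′ on the gene's strand of mouse build GRCm38.p6. Lama5 lies at chr2:180225860-180226109 on the minus strand, Lamb1 at chr12:31265043-31265292 on the plus strand and Lamb2 at chr9:108479612-108479861 on the plus strand. Capitals mark matches, on either strand, to 6 motifs: the TCF/LEF core (CTTTGAT or CTTTGTT), the AP-1 site (TGANTCA), the GC box (GGGCGG), the TATA box (TATAAA), the CDX core (TTTATNG) and the PU.1 core (GAGGAA).
Lama5: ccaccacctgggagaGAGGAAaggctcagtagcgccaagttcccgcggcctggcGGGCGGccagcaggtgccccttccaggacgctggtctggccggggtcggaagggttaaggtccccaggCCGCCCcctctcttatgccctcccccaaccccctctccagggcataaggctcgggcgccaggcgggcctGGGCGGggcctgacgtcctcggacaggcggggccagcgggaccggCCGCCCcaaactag
Lamb1: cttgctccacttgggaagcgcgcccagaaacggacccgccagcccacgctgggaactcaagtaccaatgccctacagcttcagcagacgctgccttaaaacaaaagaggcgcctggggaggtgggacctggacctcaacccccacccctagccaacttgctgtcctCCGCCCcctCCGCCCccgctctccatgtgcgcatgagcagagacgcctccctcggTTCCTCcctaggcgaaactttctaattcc
Lamb2: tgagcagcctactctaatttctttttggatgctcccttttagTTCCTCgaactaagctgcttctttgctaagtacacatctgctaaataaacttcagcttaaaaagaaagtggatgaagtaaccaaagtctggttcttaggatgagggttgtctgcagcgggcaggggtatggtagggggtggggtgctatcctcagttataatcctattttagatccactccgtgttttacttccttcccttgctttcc
Lama5 holds 4 GC boxes and Lamb1 holds 2, and each of the 3 windows holds 1 PU.1 core. Over 32851 RefSeq promoter windows of this length, 32.7% held a GC box and 23.3% a PU.1 core. The TCF/LEF core was in 8.06% of windows, the TATA box in 12.4% and the CDX core in 9.81%, and none of these 3 windows held one of them. GC made up 72.4% of the Lama5 window, 62.0% of the Lamb1 window and 43.6% of the Lamb2 window. A match is a description of the letters and not a binding site.

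Among the 6 epithelial integrin subunits, Itgb8 stood apart from the other 5. Itgb8, the beta subunit that pairs with Itgav and frees TGF-beta from its latent form, was at 6.41 in F/F tumour and 7.13 in wild-type tumour, against 4.72 in F/F normal and 4.74 in wild-type normal. The normal arrays were nearly equal and just above the level floor, and neither tumour array came near them. The fitted difference was 2.04 (SE 0.21, adjusted p = 0.0139), a fold of 4.12, and 1.84% and 1.03% of kept genes were as high or higher in the F/F and the wild-type comparison. Its partner Itgav, shared by several beta subunits, did not pass (0.29, SE 0.16, adjusted p = 0.262). Tgfb1, the ligand precursor that this pair binds, rose by 1.24 (SE 0.13, adjusted p = 0.0146).

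The promoter window of Itgb8 is shown because this gene had the greatest fitted difference of the 31. It lies at chr12:119238277-119238526 on the minus strand of GRCm38.p6, and holds no match to any of the 6 motifs above.
Itgb8: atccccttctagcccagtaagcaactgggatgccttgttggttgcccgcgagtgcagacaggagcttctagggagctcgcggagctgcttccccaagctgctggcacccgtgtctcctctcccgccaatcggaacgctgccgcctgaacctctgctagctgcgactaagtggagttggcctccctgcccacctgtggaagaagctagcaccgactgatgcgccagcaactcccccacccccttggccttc
No capitals appear, and 62.4% of its bases are G or C. That no motif matched says only that these letters are not in this window.

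The laminin-gripping pair Itga6 and Itgb4 was divided. Itga6 was at 9.66 and 9.92 in the F/F and wild-type tumours, against 9.25 in both normal colons. It rose by 0.54 (SE 0.12, adjusted p = 0.0472), close to the threshold. After cyclic loess, without the level filter or without the trend of the variance model it did not pass, with adjusted p from 0.0401 to 0.0813 over the settings tried. Itgb4 was at 7.54 in F/F tumour and 7.66 in wild-type tumour, against 7.62 in F/F normal and 7.13 in wild-type normal, and did not pass (0.22, SE 0.18, adjusted p = 0.421). Wild-type normal colon was the low array for both Itgb4 and Lamb3.

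The remaining epithelial subunits were lower or level in tumour and none passed. Itga2, the collagen receptor subunit, had the clearest order, at 8.45 and 8.88 in the F/F and wild-type tumours against 9.09 and 9.16 in the F/F and wild-type normal colons. Its fitted difference was -0.46 (SE 0.14, adjusted p = 0.0791), and it passed at 0.042 with each array centred on its median, the lowest over the settings tried, where the highest was 0.119. Itga3 differed by -0.25 (SE 0.13, adjusted p = 0.225). Itgb6, the epithelial partner of Itgav that also frees TGF-beta, was between 7.31 and 7.46 on every array and differed by -0.09 (SE 0.12, adjusted p = 0.62). The widely expressed Itgb1 was between 9.75 and 10.01 and differed by -0.10 (SE 0.13, adjusted p = 0.577).

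Of the 7 kept leukocyte subunits 3 rose, Itgb2 and its myeloid partners Itgam and Itgax, and the other 4 did not pass. Itgb2, the beta subunit found across leukocytes, was at 6.13 and 6.23 in the F/F and wild-type tumours, against 5.11 and 5.37 in the F/F and wild-type normal colons. It rose by 0.94 (SE 0.14, adjusted p = 0.0239). Itgam, its partner on neutrophils and macrophages, was at 5.91 and 6.35 in the F/F and wild-type tumours against 4.96 and 5.36 in the normal colons, and rose by 0.97 (SE 0.14, adjusted p = 0.0221). Itgax, its partner on dendritic cells and macrophages, was at 4.99 and 5.05 in the F/F and wild-type tumours against 3.73 and 4.23 in the normal colons. Both normal arrays of Itgax were below the level floor. Its fitted difference of 1.04 (SE 0.23, adjusted p = 0.0477) was close to the threshold, and did not pass after quantile normalization (0.0557) or cyclic loess (0.0514), with a lowest adjusted p of 0.026 over the settings.

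Of the lymphoid subunits, Itgal, the partner of Itgb2 on T cells, was at 5.40 and 5.28 in the F/F and wild-type tumours against 4.78 and 5.08 in the F/F and wild-type normal colons. It did not pass (0.41, SE 0.19, adjusted p = 0.188). Itgae, which with Itgb7 holds intraepithelial lymphocytes to E-cadherin, was at 4.90 and 4.89 in the F/F and wild-type tumours and at 5.22 and 5.19 in the normal colons. Its difference was nearly the same in the F/F comparison (-0.32) and the wild-type comparison (-0.30), yet it did not pass (-0.31, SE 0.17, adjusted p = 0.24). Itga4 and Itgb7, which form the gut-homing receptor of lymphocytes, had opposite signs in the 2 genotypes and are given with the genotype comparison.

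Leukocyte marker lists did not all take one direction in tumour. Of 5 neutrophil markers 2 rose (S100a8 and Retnlg), with summed signals of 7.02 and 8.43 in the F/F and wild-type tumours against 5.90 and 6.19 in the F/F and wild-type normal colons. Of 5 macrophage markers 2 rose (Cd68 and Lyz2), with sums of 9.62 and 9.96 in the F/F and wild-type tumours against 8.58 and 9.09 in the normal colons. Of 6 T and NK cell markers none rose and 3 fell (Cd3g, Cd8a and Gzma), with sums of 7.66 and 7.35 in the F/F and wild-type tumours against 8.67 and 8.23 in the normal colons. Of 5 pan-leukocyte markers 1 rose (Vav1), with sums of 9.55 and 8.93 in the F/F and wild-type tumours against 8.33 and 8.91 in the normal colons, and of 3 B cell markers none passed. Their part in the integrin values was not tested.

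Promoter windows of the myeloid alpha subunits Itgam and Itgax, neighbours in one cluster of integrin genes, are shown because both rose. Itgam lies at chr7:128062390-128062639 and Itgax at chr7:128129300-128129549, both on the plus strand of GRCm38.p6, with capitals as above.
Itgam: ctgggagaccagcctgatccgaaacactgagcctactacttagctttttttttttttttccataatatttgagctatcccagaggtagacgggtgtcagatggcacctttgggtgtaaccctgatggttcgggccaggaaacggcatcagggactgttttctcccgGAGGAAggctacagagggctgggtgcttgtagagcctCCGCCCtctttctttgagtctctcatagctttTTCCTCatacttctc
Itgax: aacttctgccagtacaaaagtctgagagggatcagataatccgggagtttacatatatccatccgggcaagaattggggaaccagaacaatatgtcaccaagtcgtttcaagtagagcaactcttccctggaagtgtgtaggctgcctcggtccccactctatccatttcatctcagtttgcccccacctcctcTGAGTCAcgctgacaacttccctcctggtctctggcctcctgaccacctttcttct
Itgam holds 2 PU.1 cores and 1 GC box, and Itgax holds 1 AP-1 site, a motif found in 6.75% of windows. PU.1 is a transcription factor of myeloid cells. Of the 20 kept genes with an entry, 11 held a PU.1 core in at least 1 of their windows. The 23.3% given above is a share of single windows, and a gene can have several, so the 2 are not like measures. Itgam was the only leukocyte subunit among these 11.

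Among stromal integrin subunits 1 of 7 passed. Itga7, the laminin receptor subunit of muscle, was at 4.71 and 4.35 in the F/F and wild-type tumours, against 5.59 and 5.07 in the F/F and wild-type normal colons. It fell by 0.80 (SE 0.18, adjusted p = 0.0461), was the lowest in wild-type tumour, where it was below the level floor, and passed in each of the 7 settings run. The 6 smooth muscle markers (Acta2, Actg2, Cnn1, Des, Myh11 and Tagln) were lower in tumour in both genotypes, with summed signals of 11.71 and 11.07 in the F/F and wild-type tumours against 12.18 and 12.87 in the F/F and wild-type normal colons, though none passed. Their part in the Itga7 value was not tested.

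Itgb3, the beta subunit of endothelial cells, macrophages and platelets, was at 5.72 and 5.68 in the F/F and wild-type tumours against 4.69 and 5.18 in the F/F and wild-type normal colons. It did not pass (0.76, SE 0.20, adjusted p = 0.0647), but passed at 0.0409 with each array centred on its median, the lowest of the settings, where the highest adjusted p was 0.0933. The platelet subunit Itga2b was below the level floor on every array, between 3.11 and 3.28. Itga1 (-0.02), the fibronectin receptor subunit Itga5 (0.06), Itga9 (0.04) and Itgb5 (-0.01) had fitted differences near 0, with adjusted p from 0.822 to 0.95. The direction of Itga5 and Itga9 changed sign under other scalings of the arrays.

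**Figure D3:**
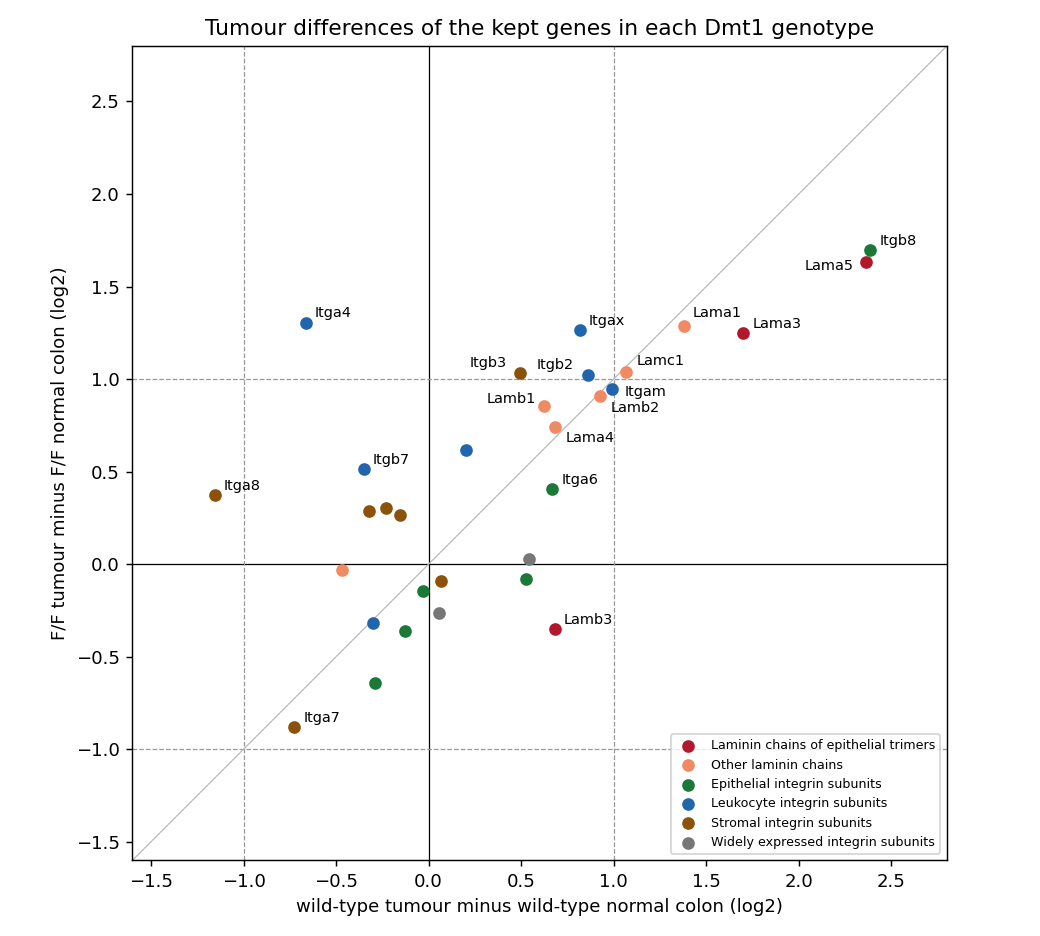
Difference between tumour and normal colon (log2) of the 31 kept genes in wild-type mice (x axis) and in F/F mice (y axis), 1 point a gene, coloured by group, with dashed lines at 2-fold and a grey line of equal differences. Itgb8 and Lama5 are at 1.70 and 1.63 in F/F mice and at 2.39 and 2.36 in wild-type mice, while Itga4 and Itga8 lie in the upper left with opposite signs in the 2 genotypes.

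In F/F mice alone, 9 of the 31 genes reached a 2-fold higher level in F/F tumour than in F/F normal colon, and none was lower, where 5.98% and 3.81% of kept genes were. They were the 4 laminin chains Lama1, Lama3, Lama5 and Lamc1 and the integrin subunits Itgb8, Itgax, Itgb2, Itga4 and Itgb3. In wild-type mice 5 were higher, the same 4 laminin chains with Itgb8, and 1, Itga8, was lower, where 6.56% and 5.31% of kept genes were. Set against wild-type normal colon, F/F tumour had 3 genes higher by 2-fold or more: Lama5 by 1.68, Itgb8 by 1.67 and Lama3 by 1.18. Itga8, the receptor subunit of smooth muscle and fibroblasts for nephronectin, was at 4.65 in F/F tumour and 3.66 in wild-type tumour, against 4.27 in F/F normal and 4.82 in wild-type normal. Most of its values lay below the level floor, so the wild-type difference of -1.16 is uncertain in size.

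Proteins that work with integrins and laminins were followed through lists chosen by their role. Of 10 kept basement membrane partners 4 rose and none fell. The laminin receptor Bcam rose by 1.47 (SE 0.23, adjusted p = 0.0251), the collagen chains Col4a1 by 1.08 (SE 0.14, adjusted p = 0.0201) and Col4a2 by 0.73 (SE 0.14, adjusted p = 0.037), and the laminin-binding linker Nid1 by 0.67 (SE 0.12, adjusted p = 0.0314). Ntn4, a netrin that disturbs laminin assembly, was lower by 2-fold or more in the F/F comparison (-1.31) but did not pass (-0.95, SE 0.24, adjusted p = 0.0588). Among the 4 hemidesmosome partners only Dst, whose epithelial product links Itgb4 to keratin, passed. It fell by 1.11 (SE 0.18, adjusted p = 0.0264), and its 1 probe set does not show which product of the gene differed.

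Of 7 kept integrin ligands 4 rose and none fell, Tgfb1 among them. Fibronectin, Fn1, was at 10.003 and 10.58 in the F/F and wild-type tumours against 7.65 and 8.72 in the F/F and wild-type normal colons, and rose by 2.11 (SE 0.16, adjusted p = 0.00812). Npnt, nephronectin, the ligand of Itga8 with Itgb1, rose by 1.93 (SE 0.19, adjusted p = 0.0121), while Itga8 itself did not pass. Icam1, the ligand of the Itgb2 receptors, rose by 1.36 (SE 0.14, adjusted p = 0.0136). Vcam1, the ligand of Itga4 with Itgb1, and the matrix protein Tnc were higher by 2-fold or more in the F/F comparison (1.17 and 1.23) and did not pass (adjusted p = 0.0916 and 0.0898). Inside the cell, of 14 kept adhesion proteins only the epithelial kindlin Fermt1, which binds beta tails, passed, with a rise of 0.75 (SE 0.10, adjusted p = 0.0208).

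Between the genotypes no integrin or laminin gene passed. The limma model called 0 of the 12060 kept genes in either direction (0.00%), and the smallest adjusted p among the 31 was 0.577, for Itgam. At an unadjusted p below 0.05 there were 2 of the 31, Itgam and Lama1, and 991 of all kept genes (8.22%). The tumour and the normal colon of 1 genotype may share animals, so the genotype term holds no measure of animal-to-animal spread.

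In the tumours, 1 gene differed by 2-fold or more between the genotypes, where 1.70% of kept genes were higher in F/F and 0.506% lower. This was Itga4, at 6.77 in F/F tumour against 5.61 in wild-type tumour, a difference of 1.15. In normal colon it went the other way, at 5.46 in F/F normal against 6.28 in wild-type normal, a difference of -0.81. Its partner Itgb7 had differences of the same signs near the level floor, at 4.84 in F/F tumour against 4.31 in wild-type tumour, and at 4.32 in F/F normal against 4.66 in wild-type normal. Its 3 lower arrays lay below the floor, and it was kept only through F/F tumour. With 1 array a group neither pattern could be tested.

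The medians of B cell and pan-leukocyte markers lay in the same order, and so did those of smooth muscle and endothelial markers. The median difference of the 3 kept B cell markers was 1.77 in tumour and -0.70 in normal colon, F/F minus wild-type, with a summed signal of 8.58 in F/F tumour against 6.74 in wild-type tumour. In normal colon it was 6.20 in F/F normal against 6.96 in wild-type normal. For the 5 pan-leukocyte markers the medians were 0.41 and -0.48, with Vav1 alone below 0 in tumour (-0.14). The 6 smooth muscle markers had medians of 0.67, with 6 above 0, and -0.58, with 6 below 0. Those of the 5 endothelial markers were 0.20 and -0.19, with 3 above 0 and 2 below in tumour. For the 5 macrophage markers the medians were -0.15 and -0.34, and for the 5 neutrophil markers -1.30 and -0.42. The 6 T and NK cell markers had medians of 0.10 and 0.27, with 3 above 0 and 3 below in tumour. Only Cd4 of these 6 had the order of Itga4, with 1.21 in tumour and -0.09 in normal colon. Itgam was lower in F/F in both tissues, with differences of -0.44 in tumour and -0.40 in normal colon, and so was Itgb2, with -0.10 and -0.26. The part of B cells, neutrophils, other leukocytes, muscle and endothelium in these values was not tested.

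**Figure D4:**
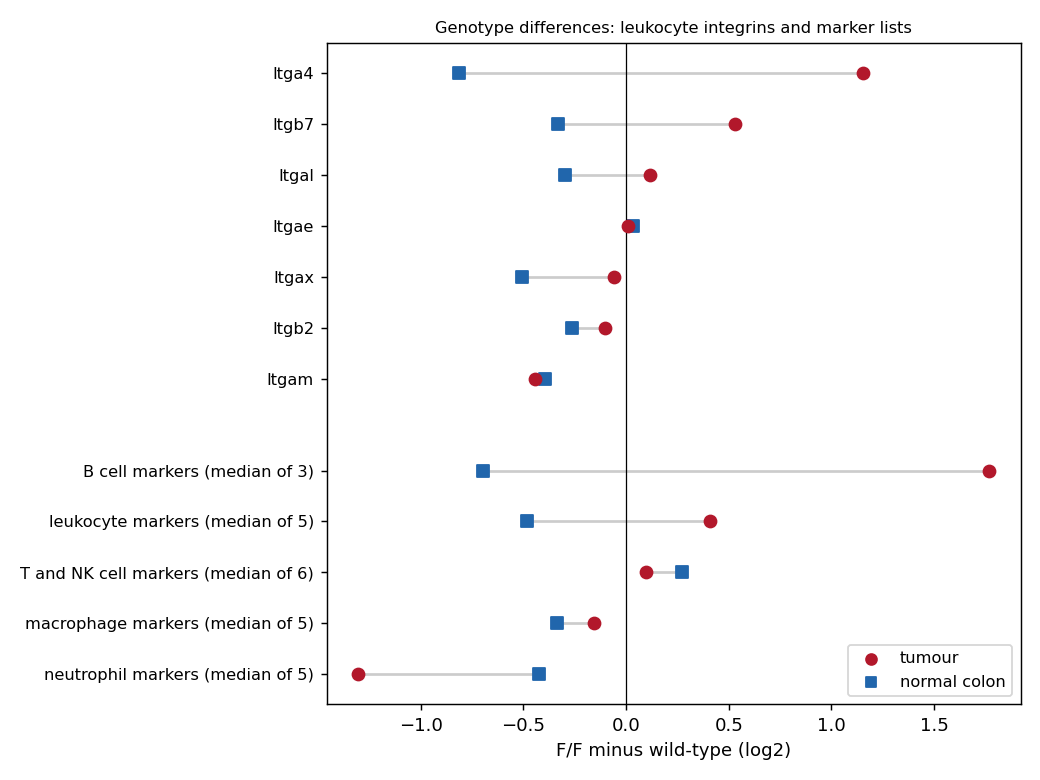
F/F minus wild-type difference (x axis, log2) in the tumours (red circles) and the normal colons (blue squares) for the 7 kept leukocyte integrin subunits, and the median difference of 5 leukocyte marker lists with the number of kept genes in brackets. Itga4 and Itgb7 lie right of 0 in tumour and left of 0 in normal colon, as the B cell and pan-leukocyte medians do, whereas Itgam lies left of 0 in both.

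The laminins that rose in tumour were lower in F/F than in wild-type tumour, by unlike amounts. Lama5 differed by -0.68, Lama1 by -0.59, Lama3 by -0.52, and Lamb2, Lama4, Lamb1 and Lamc1 by -0.18 to -0.25. At or below the values of Lama5, Lama1 and Lama3 were 1.9%, 2.8% and 3.97% of kept genes. For the other chains this share was 16.7% to 25.5%. Itgb8 differed by -0.72, where 1.59% of kept genes were at or below that value. In normal colon, where Lama5 and Itgb8 were near the level floor, these 2 differed by 0.05 and -0.02. Of the 9 kept laminins 6 were lower in F/F in both tissues and none was higher in both. Over the 31 genes these counts were 13 and 3, against 26.4% and 28.9% of all kept genes, and no fitted genotype difference passed. Fibroblast markers had medians of -0.18 in tumour and -0.33 in normal colon, F/F minus wild-type, and their part in the laminin values was not tested.

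In normal colon, no gene of the 31 differed by 2-fold or more between genotypes, where 0.713% of kept genes were higher in F/F and 0.904% lower. Lamb3 was the highest in F/F normal relative to wild-type normal, by 0.87, and 1.14% of kept genes were as high or higher. Itgb4, with which the Lamb3 trimer is gripped, was higher by 0.49. Among stromal subunits the F/F minus wild-type difference in normal colon ran over the 7 kept genes from -0.69 for Itga1, -0.55 for Itga8, -0.50 for Itgb3 and -0.49 for Itga5, through -0.16 for Itga9 and 0.07 for Itgb5, to 0.52 for the muscle subunit Itga7. The smooth muscle markers had a median of -0.58 there, with 6 of 6 below 0, and the distal Hox genes one of -0.91. In tumour the smooth muscle median was 0.67, with 6 of 6 above 0, and that of the Hox genes was 0.005. Itga8 too was higher in F/F than in wild-type tumour, by 0.98, with both tumour arrays below the level floor. Whether these follow the genotype or the piece of colon cannot be told apart.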

How the data were processed

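Total RNA (400 ng per labels' protocols) from 4 samples was labelled with biotin and hybridised to 1 Affymetrix array each. The authors deposited 1 log2 signal a probe set. The submitters' processing notes name RMA and oligo, without versions. RMA scales the arrays to one another and gives no detection call. The array medians over all probe sets still ran from 4.27 in F/F normal to 4.34 in F/F tumour. The table holds 41345 probe sets and 0 columns of other samples. Of the probe sets, 23521 had 1 gene in the platform annotation, 1814 several and 16010 were unnamed there. Gene IDs of 23328 matched RefSeq of GRCm38.p6, which gave the symbols, and 193 kept their own. The probe set with the highest mean stood for a gene, and 12060 of 22180 genes reached the level floor.

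Differences were taken between log2 values, with counts at 2-fold. limma 3.58.1 in R 4.3.3 was fitted to all kept genes with additive terms for tissue and genotype, then eBayes with an intensity trend (prior of 3.4 degrees of freedom) and Benjamini-Hochberg adjustment. The fit was also run on simulated data with noise drawn from its own variance model, which does not check the calls made here. All members of the 2 families with a single-gene probe set are described, and partners were named where they passed or differed by 2-fold. The members and the gene lists, markers included, were chosen with earlier results of these data known. Sequences come from RefSeq's promoter table, in which 20 kept genes matched. Alternatives were the level filter, array scaling, probe sets, fold threshold, baseline and variance model.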

Additional observations from a re-analysis of the deposited data

Results flagged for a closer look

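For 10 of the 31 kept genes the tumour arrays lay on opposite sides of the normal arrays in the 2 genotypes, as did 21.7% of all kept genes. This difference between genotypes was not tested, since no degree of freedom is left for it. The values that follow are the F/F tumour difference minus the wild-type tumour difference, on the log2 scale. Itga4 had the greatest at 1.97, followed by Itga8 at 1.53, Lamb3 at -1.03 and Itgb7 at 0.86. Itga1 was at 0.61, Itgb4 at -0.61, Itga9 at 0.53, Itga5 at 0.42, Itgb1 at -0.32 and Itgb5 at -0.16.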

How the results depend on the processing

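No paired analysis was possible because each group has 1 array and no replicate number to block on, beyond the model itself, which sets tumour against normal colon within each genotype. Of the 12 genes that rose in tumour, 10 (all but Itga6 and Itgax) passed in each of the 7 settings of the model, and the number that rose was between 10 and 13. With each array centred on its median 2 genes fell, Itga2 and Itga7. No integrin or laminin gene passed for genotype in any of these settings. Fitted differences near 0 changed sign: Itga5 was at -0.0003 after centring, -0.0723 after quantile normalization and -0.0535 after cyclic loess, Itga9 at -0.0181, -0.1111 and -0.0703 under the same 3 scalings, and Itgb7 at -0.0009 after quantile normalization. Counting at 1.5-fold gave 14 genes higher and 2 lower in F/F tumour than in F/F normal colon, and 13 higher and 3 lower in wild-type tumour than in wild-type normal colon. Between genotypes it gave 2 higher and 3 lower in F/F tumour, and 1 higher and 2 lower in F/F normal colon. The count of 9 genes higher by 2-fold in F/F tumour than in F/F normal colon became 6 with each array centred on its median, 6 after quantile normalization and 7 with both arrays required above the level floor. F/F tumour against wild-type normal colon gave 3 higher. After quantile normalization 1 gene was lower in F/F tumour than in F/F normal colon. With both arrays required above the level floor, an alternative chosen after seeing the data, 0 genes were lower in wild-type tumour. The number of arrays limits precision, and values near the level floor are the least certain.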
